A study of Sus scrofa with 6 samples.

Results

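The *NDUF* genes encode the nuclear subunits of mitochondrial complex I and the factors that assemble it, and their mRNA was examined in skeletal muscle of UCP1 KI pigs and WT pigs. All 38 genes of the count table whose Ensembl pig symbol starts with *NDUF* were taken, out of 30476 genes in the table. Each of the 38 had at least 10 counts in at least 3 pigs, a rule that 13489 genes of the table met, so no *NDUF* gene of the table was lost to it. The gene name table holds 42 such symbols, and *NDUFA1*, *NDUFA13*, *NDUFC1* and *NDUFAF2* were not analysed here because their identifiers were not among those counted. The core subunit *NDUFS7* and the accessory subunits *NDUFA3*, *NDUFA12*, *NDUFB3* and *NDUFV3* had no identifier under their symbol and were not analysed here.

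The study asked whether placing UCP1 in fat cells changes the muscle of the same animal. UCP1, the uncoupling protein that lets mitochondria release energy as heat, was inserted with CRISPR/Cas9 at a chosen genomic site for expression in adipocytes in UCP1 KI pigs, and WT pigs lack this insertion. Back muscle (longissimus dorsi) came from 3 UCP1 KI and 3 WT pigs aged 6 months, with 1 RNA-seq library for each animal. The transgene is meant for fat cells and not for muscle fibres, and the sources used here give neither the promoter, the sex of the pigs nor whether they were littermates. The gene name table pairs no identifier with *UCP1*, so the genotype was not checked against its counts.

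Complex I accepts electrons from NADH, passes them along a chain of iron-sulphur clusters to ubiquinone and pumps protons across the inner mitochondrial membrane. Its catalytic core is made of conserved subunits encoded partly in the nucleus and partly in mitochondrial DNA, and around this core sits a shell of accessory subunits needed to build and hold the complex. Assembly factors join the modules together and leave before the enzyme works. Skeletal muscle fibres depend on the complex for sustained ATP supply, and slow oxidative fibres are rich in mitochondria.

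The libraries held between 30220951 and 35066624 counts on genes. Values are given as CPM, a gene's counts scaled to a common library size after edgeR's TMM normalization. WT replicate 2 had the smallest TMM factor, at 0.781, and UCP1 KI replicate 2 the largest, at 1.18. A level of CPM also depends on transcript length, so levels are compared between pigs and not between genes. The muscle markers *ACTA1*, *CKM* and *DES* were measured in all 6 pigs at 3321 CPM or more, whereas *MB*, *TTN*, *MYH1*, *MYH2*, *MYH4* and *MYH7* had no identifier under their symbol. In bulk tissue fewer cells of a type and less RNA per cell cannot be told apart.

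Most *NDUF* genes had a lower mean level in UCP1 KI muscle, but few differences exceeded the spread between pigs. The log2 fold change of UCP1 KI against WT was negative for 32 of the 38 genes, with a median of -0.24 and a range from -1.18 for *NDUFA5* to 0.63 for *NDUFAF6*. Over all 13402 genes tested the median was -0.015. With library size as the only scaling, 20 were negative and 18 positive and the median was -0.018, while the median of all genes was 0.24. The distance between both medians was -0.22 with TMM factors and -0.26 without. Genes with both a p under 0.05 before adjustment in edgeR's quasi-likelihood test and a log2 fold change beyond 0.5 in either direction were called. By this rule 3 *NDUF* genes (7.89%) fell, *NDUFA5*, *NDUFB1* and *NDUFA2*, and 0 rose. Over all genes tested 8.19% were called in either direction, 3.84% as higher and 4.34% as lower in UCP1 KI pigs, so the share of *NDUF* genes called was near the background. After Benjamini-Hochberg adjustment of the edgeR test over all genes, 0 *NDUF* genes and 0% of all genes had an adjusted p under 0.05, whereas 3 *NDUF* genes and 1100 genes in all had such a p before adjustment. DESeq2 on the same genes gave 127 genes under an adjusted p of 0.05, and 1 of them was an *NDUF* gene, *NDUFA5*. For 7 *NDUF* genes every UCP1 KI pig lay below every WT pig, and for 1 every UCP1 KI pig lay above, against 7.69% and 7.59% of all genes tested.

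**Figure D1:**
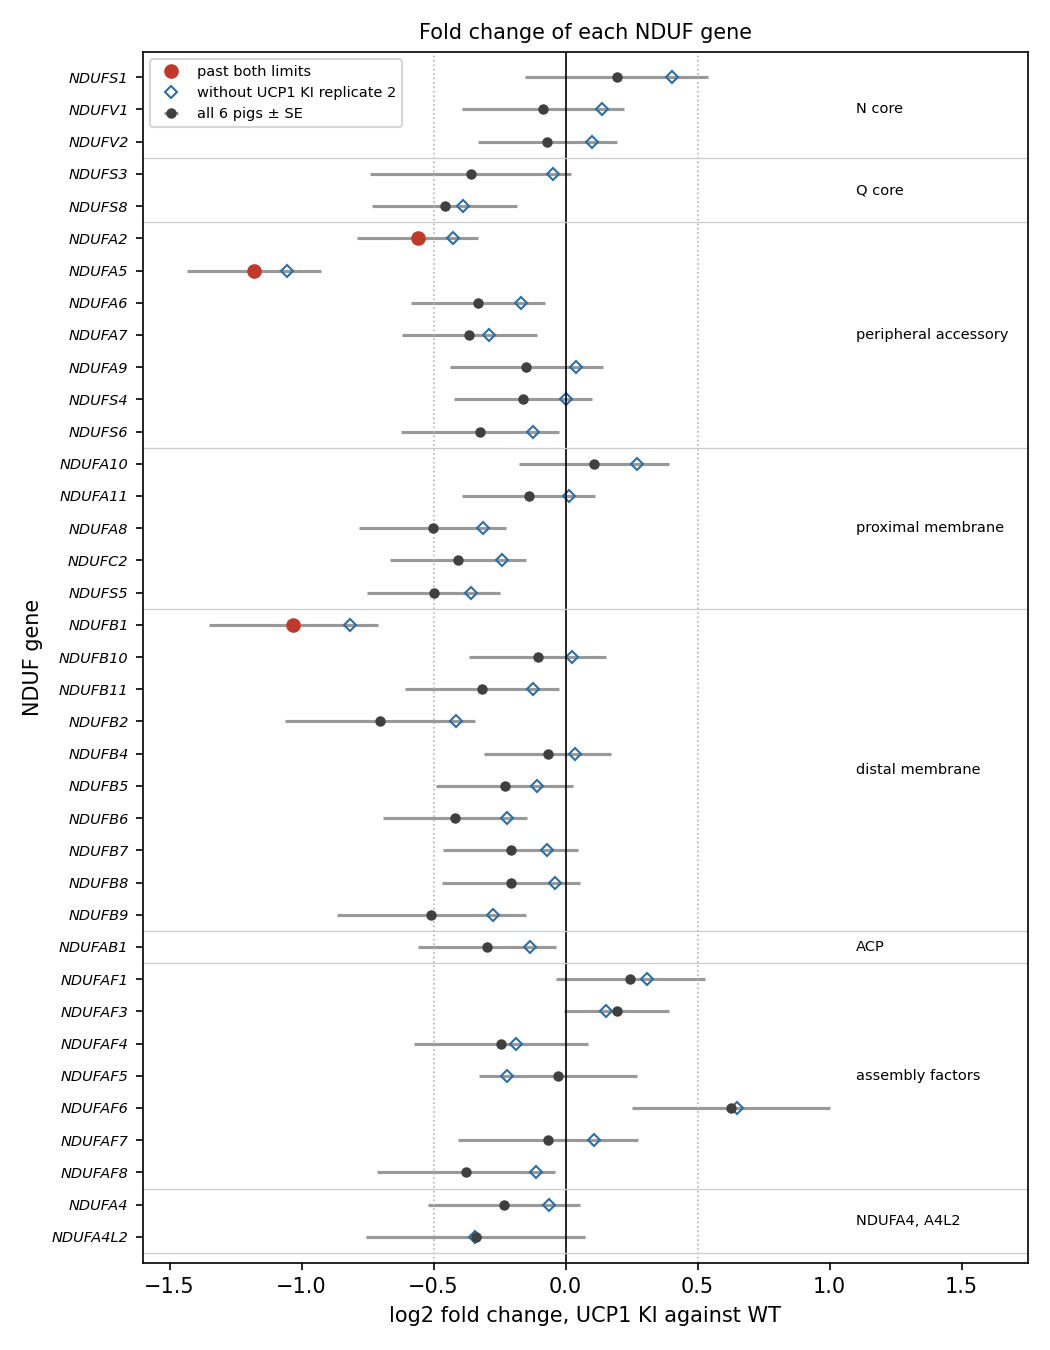
Log2 fold change of UCP1 KI against WT (horizontal axis) for 37 *NDUF* genes (vertical axis), ordered by role, with the standard error as a bar, red points for the 3 genes past both limits and open diamonds for the value without UCP1 KI replicate 2. *NDUFA5*, *NDUFB1* and *NDUFA2* lie at -1.18, -1.03 and -0.56, most other subunits lie left of 0, and the diamonds of the subunits drawn lie to the right of their points.

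The core subunits did not differ between the groups beyond the spread of the pigs. Of the 6 nuclear core genes measured, 4 had a negative and 2 a positive log2 fold change, the median was -0.077, 0 were called and the groups overlapped for each of them. Their direction turned without UCP1 KI replicate 2 and with library size only, each with 4 positive and 2 negative values and medians of 0.12 and 0.14. Without WT replicate 2 all 6 were negative, with a median of -0.18, and without UCP1 KI replicate 1 or 3 the median was -0.19. In the NADH-oxidising N module, *NDUFV1*, which carries the flavin and the NADH site, stood at 201, 112 and 204 CPM in the UCP1 KI pigs, listed here and below in the order of replicates 1, 2 and 3, and at 209, 148 and 191 CPM in the WT pigs. This amounted to a log2 fold change of -0.086 (SE 0.31, adjusted p = 0.947 by edgeR with Benjamini-Hochberg correction). UCP1 KI replicate 2 was the lowest pig, and the other 2 UCP1 KI pigs lay among the WT pigs. *NDUFV2*, an iron-sulphur subunit next to *NDUFV1*, showed 233, 149.7 and 226 CPM in UCP1 KI against 222, 191 and 225 CPM in WT muscle, with a log2 fold change of -0.068 (standard error 0.26). *NDUFS1*, the large iron-sulphur subunit, was at 75.5, 46.2 and 84.5 CPM against 61.8, 38.5 and 79.9 CPM, with the largest positive value of the subunits at 0.19 (standard error 0.35). Here WT replicate 2, not a UCP1 KI pig, was lowest, and without it the value was -0.045.

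The Q module carries electrons on to the ubiquinone site. *NDUFS3* was at 192, 68.8 and 144 CPM in UCP1 KI and 146, 174 and 199 CPM in WT muscle, with a log2 fold change of -0.36 (standard error 0.38). UCP1 KI replicate 2 was the lowest of the 6 pigs, replicate 1 lay within the WT range and replicate 3 just under it. Without replicate 2 the log2 fold change was -0.047, and without replicate 1 it was -0.70. *NDUFS8*, which holds iron-sulphur clusters close to the ubiquinone site, had the lowest fold change of the core at -0.46 (standard error 0.27, adjusted p = 0.682 by edgeR with Benjamini-Hochberg correction), with 294, 211 and 205 CPM against 327, 384 and 266 CPM. Only UCP1 KI replicate 1 reached into the WT range. *NDUFS8* and *NDUFV1* lie on chromosome 2 of Sscrofa11.1, 91116 bases apart, and their log2 fold changes were -0.46 and -0.086.

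The 3 called genes were accessory subunits, which make up 23 of the 29 subunits measured. Among these 23 genes 22 had a negative log2 fold change, with *NDUFA10* the exception at 0.11 (standard error 0.28), 3 were called lower, 0 higher, and the median was -0.325. Over all genes 4.34% were called lower. *NDUFA10* stood at -0.060 without WT replicate 2, where all 23 were negative, and at 0.27 without UCP1 KI replicate 2. Without UCP1 KI replicate 2 the accessory genes had 17 negative and 6 positive values with a median of -0.14, and with library size only 15 and 8 with a median of -0.078. The 7 *NDUF* genes in which every UCP1 KI pig lay below every WT pig were accessory subunits, where all genes had a share of 7.69%. The fold changes of accessory and core genes were not tested against each other. The share of subunit counts on the core genes is given below.

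*NDUFA5*, an accessory subunit of the peripheral arm, had the largest difference. It is located on chromosome 18 (23881872 to 23896699, Sscrofa11.1). Its level was 27.1, 18.7 and 23.2 CPM in UCP1 KI muscle and 41.3, 57.7 and 57.3 CPM in WT muscle. The highest UCP1 KI pig thus lay well below the lowest WT pig. The mean was 23.0 ± 4.23 CPM (SD, n = 3) in UCP1 KI pigs against 52.1 ± 9.34 CPM (SD, n = 3) in WT pigs. The fitted ratio was 0.442, or -1.18 on the log2 scale (standard error 0.25). Its unadjusted p of 0.00182 became an adjusted p of 0.460 over all genes by edgeR with Benjamini-Hochberg correction. DESeq2 on the same genes gave an adjusted p of 0.0136. *NDUFA5* stayed past both limits whichever single pig was left out, at log2 fold changes from -1.32 to -1.06.

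*NDUFB1*, a small subunit with a single membrane span in the distal part of the membrane arm, followed. The gene is on chromosome 7 (113652772 to 113659937, Sscrofa11.1). The UCP1 KI pigs had 64.1, 31.1 and 44.6 CPM and the WT pigs 90.4, 117 and 78.5 CPM. No UCP1 KI pig reached the WT range, and WT replicate 2 was highest while UCP1 KI replicate 2 was lowest. The mean was 46.6 ± 16.6 CPM (SD, n = 3) against 95.2 ± 19.6 CPM (SD, n = 3). The fitted ratio was 0.489, or -1.03 on the log2 scale (standard error 0.32), with an unadjusted p of 0.0129 and an adjusted p of 0.583 by edgeR with Benjamini-Hochberg correction. The DESeq2 adjusted p was 0.192. The gene remained past both limits without any single pig, at -1.33 to -0.82, but stood at -0.64 and was not called when the replicates numbered 2 of both groups were left out together.

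*NDUFA2*, a subunit of the N module with a thioredoxin-like fold, had the smallest of the 3 called differences. It lies on chromosome 2 (142359000 to 142361126, Sscrofa11.1). Its level was 65.0, 44.5 and 58.5 CPM in UCP1 KI and 84.8, 80.1 and 82.7 CPM in WT muscle. The 3 WT pigs were close together, at 82.5 ± 2.36 CPM (SD, n = 3), and all 3 UCP1 KI pigs were below them at 56.0 ± 10.4 CPM (SD, n = 3). This was a difference of -0.56 on the log2 scale (standard error 0.23, adjusted p = 0.603 by edgeR with Benjamini-Hochberg correction). This call was lost without UCP1 KI replicate 2 (-0.43) and without replicate 3 of that group (-0.59), and likewise without any single WT pig (-0.54, -0.58 and -0.56). It was also lost with library size as the only scaling, at -0.33, and with no filter on low counts, at -0.54.

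**Figure D2:**
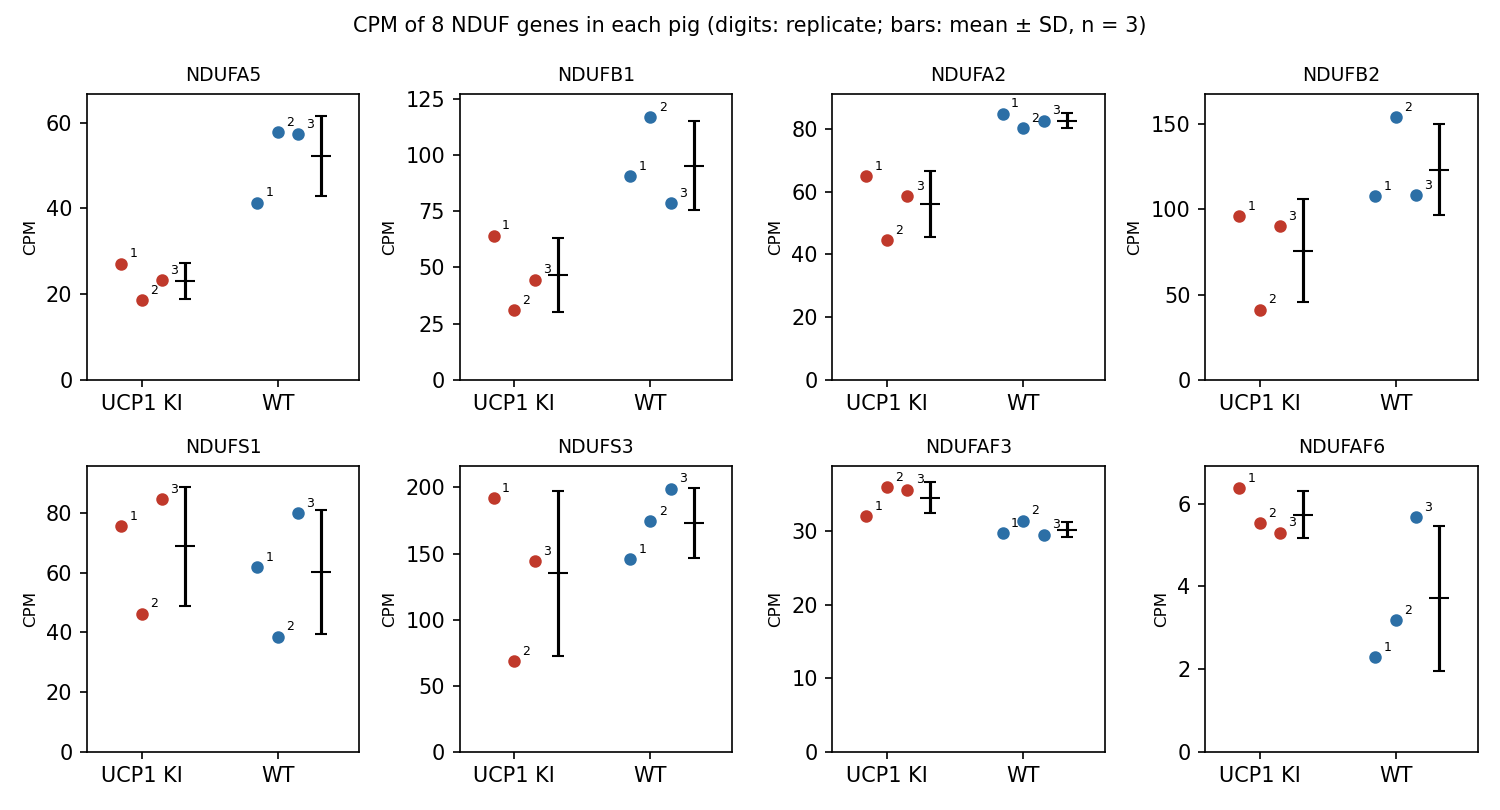
CPM (vertical axis, from 0) of 8 *NDUF* genes in each UCP1 KI and each WT pig, with replicate numbers as digits and bars for the mean ± SD (n = 3). For *NDUFA5* the UCP1 KI pigs lie between 18.7 and 27.1 CPM and the WT pigs between 41.3 and 57.7 CPM.

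The other 4 genes with no overlap did not pass the test. *NDUFB2*, a further distal membrane arm subunit, was at 95.9, 41.2 and 90.1 CPM against 108, 154 and 108 CPM, with a log2 fold change of -0.70 (standard error 0.36, adjusted p = 0.642 by edgeR with Benjamini-Hochberg correction). It stood at -0.42 without UCP1 KI replicate 2, the lowest pig. The remaining 3 were singled out after their values were seen, because their groups do not overlap. *NDUFS5*, in the intermembrane space, was at 146, 92.9 and 117 CPM against 168, 180.0 and 154 CPM (log2 fold change -0.50, standard error 0.25). *NDUFC2*, a membrane subunit, was at 94.8, 61.4 and 93.3 CPM against 122, 96.0 and 113 CPM (-0.41, standard error 0.26). *NDUFB6*, in the distal membrane arm, was at 133, 75.2 and 117 CPM against 152, 149.7 and 134 CPM (-0.42, standard error 0.27). Without UCP1 KI replicate 2 *NDUFC2* stood at -0.24 and *NDUFB6* at -0.22. In *NDUFC2* and *NDUFB6* the best UCP1 KI pig was within 2 CPM of the lowest WT pig. For each of these 4 genes, and for *NDUFA5*, *NDUFB1* and *NDUFA2*, the two-sided exact permutation test gave p = 0.1, the smallest value that 3 pigs against 3 can give. Groups without overlap always give this value, so it adds nothing to the lack of overlap.

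Grouped by place in the complex, all 7 accessory genes of the peripheral arm had negative log2 fold changes, with a median of -0.33 and 2 calls, where 4.34% of all genes were called lower. Besides *NDUFA5* and *NDUFA2* these were *NDUFA7* (-0.36), *NDUFA6* (-0.33), *NDUFS6* (-0.32), *NDUFS4* (-0.16) and *NDUFA9* (-0.15). *NDUFS4* and *NDUFS6* sit at the N module, and *NDUFA9* at the Q module. Of the 5 genes of the proximal membrane arm 4 were negative with 0 calls and a median of -0.41, among them *NDUFA8* (-0.50) and *NDUFA11* (-0.14). The 10 genes of the distal membrane arm were all negative, with a median of -0.27 and *NDUFB1* as the sole call. These signs depend on the scaling. With library size only *NDUFA9* (0.092) and *NDUFS4* (0.087) of the peripheral arm and *NDUFA11* (0.084) of the proximal membrane arm were positive. So were *NDUFB4* (0.19), *NDUFB10* (0.15), *NDUFB7* (0.055) and *NDUFB8* (0.037) of the distal membrane arm. Of these *NDUFA9*, *NDUFS4*, *NDUFA11*, *NDUFB4* and *NDUFB10* were also above 0 without UCP1 KI replicate 2. *NDUFB9* stood at -0.51 (standard error 0.36) with overlapping groups, and *NDUFB4* at -0.067 was closest to 0. *NDUFAB1*, the acyl carrier protein that also serves mitochondrial fatty acid synthesis, stood at -0.30 (standard error 0.26). Without UCP1 KI replicate 2 *NDUFB9* stood at -0.27 and *NDUFAB1* at -0.14, and without WT replicate 2 *NDUFB9* stood at -0.29.

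The share of each gene within the complex I subunits was looked at after these values were seen. Dividing a gene's counts by the counts on all 29 subunits of the same pig removes any difference that all subunits share. *NDUFA5* took 0.596%, 0.690% and 0.581% of subunit counts in UCP1 KI and 0.963%, 1.20% and 1.19% in WT muscle. *NDUFB1* took 1.41%, 1.15% and 1.12% against 2.10%, 2.43% and 1.62%. *NDUFA2* took 1.43%, 1.65% and 1.46% against 1.98%, 1.67% and 1.71%. The UCP1 KI pigs thus lay below the WT pigs in all 3 genes on this scale too, though in *NDUFA2* by a narrow margin. *NDUFB2*, at 2.11%, 1.52% and 2.25% against 2.50%, 3.21% and 2.23%, overlapped once expressed this way, as did *NDUFC2*, *NDUFS5* and *NDUFB6*. For 3 genes every UCP1 KI pig lay above every WT pig on this scale. On the CPM scale 7.69% of all genes had no overlap in the lower and 7.59% in the higher direction. No such background was computed for shares within the subunits, so 3 of 29 each way is not read against it. *NDUFS1* took 1.66%, 1.71% and 2.12% against 1.44%, 0.802% and 1.65%. *NDUFA10* took 3.46%, 3.69% and 3.53% against 3.31%, 1.93% and 2.78%. *NDUFB4* took 4.43%, 5.57% and 4.67% against 3.77%, 4.20% and 4.15%. A share that is lower in some genes must be higher in others. The 6 core genes together made up 25.8%, 24.7% and 26.1% of subunit counts against 25.1%, 21.8% and 24.2% (two-sided exact permutation test, p = 0.2).

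Assembly factors differed in direction from one another. Of the 7 measured *NDUFAF* genes 3 had a positive and 4 a negative log2 fold change, the median was -0.028 and 0 were called. With library size only 6 of the 7 were positive, with a median of 0.24, where all genes also had 0.24. Without UCP1 KI replicate 2 the median was 0.11. *NDUFAF6*, which acts early in assembly, was the highest of all *NDUF* genes at 0.63 (standard error 0.38, adjusted p = 0.682 by edgeR with Benjamini-Hochberg correction), from 6.37, 5.53 and 5.30 CPM against 2.29, 3.18 and 5.67 CPM. WT replicate 3 lay inside the UCP1 KI range, and without it the log2 fold change was 1.07 and past both limits. *NDUFAF3*, which works with *NDUFAF4* in building the early intermediates, was at 32.1, 35.9 and 35.6 CPM against 29.7, 31.4 and 29.5 CPM. It was the 1 *NDUF* gene with every UCP1 KI pig above every WT pig, but the difference was small, at a log2 fold change of 0.19 (standard error 0.20). *NDUFAF1*, a factor of the membrane arm, was at 12.6, 12.6 and 17.1 CPM against 12.9, 8.58 and 14.2 CPM, a log2 fold change of 0.25 (standard error 0.28). Without WT replicate 2 *NDUFAF1* stood at 0.058. *NDUFAF4* (-0.24), *NDUFAF5* (-0.028), *NDUFAF7* (-0.067), a mitochondrial methyltransferase, and *NDUFAF8* (-0.38) overlapped between the groups. Among 14 further assembly factors without the *NDUF* prefix, 12 could be tested, 9 were positive, 0 were called and the median was 0.13. This median was 0.022 without WT replicate 2, 0.31 without WT replicate 3 and 0.35 with library size only. They ranged from -0.34 for *TIMMDC1*, a membrane arm factor, to 0.53 for *NUBPL*, which serves the iron-sulphur clusters. *DMAC1* had 0 counts in all 6 pigs, which allows up to 0.1096 CPM in the pig with the highest limit (3 counts, counting error only), and *COA1* was not matched by symbol.

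*NDUFA4* and *NDUFA4L2* bear the prefix but are today placed outside complex I, the former in cytochrome c oxidase. *NDUFA4* had a log2 fold change of -0.23 (standard error 0.29) and *NDUFA4L2* of -0.34 (standard error 0.42), both with overlapping groups. With 1 pig left out at a time *NDUFA4* lay between -0.42 and -0.062 and *NDUFA4L2* between -0.66 and 0.22. The level of *NDUFA4* is uncertain because RefSeq lists a pseudogene of it on chromosome 13 that could share its reads.

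**Figure D3:**
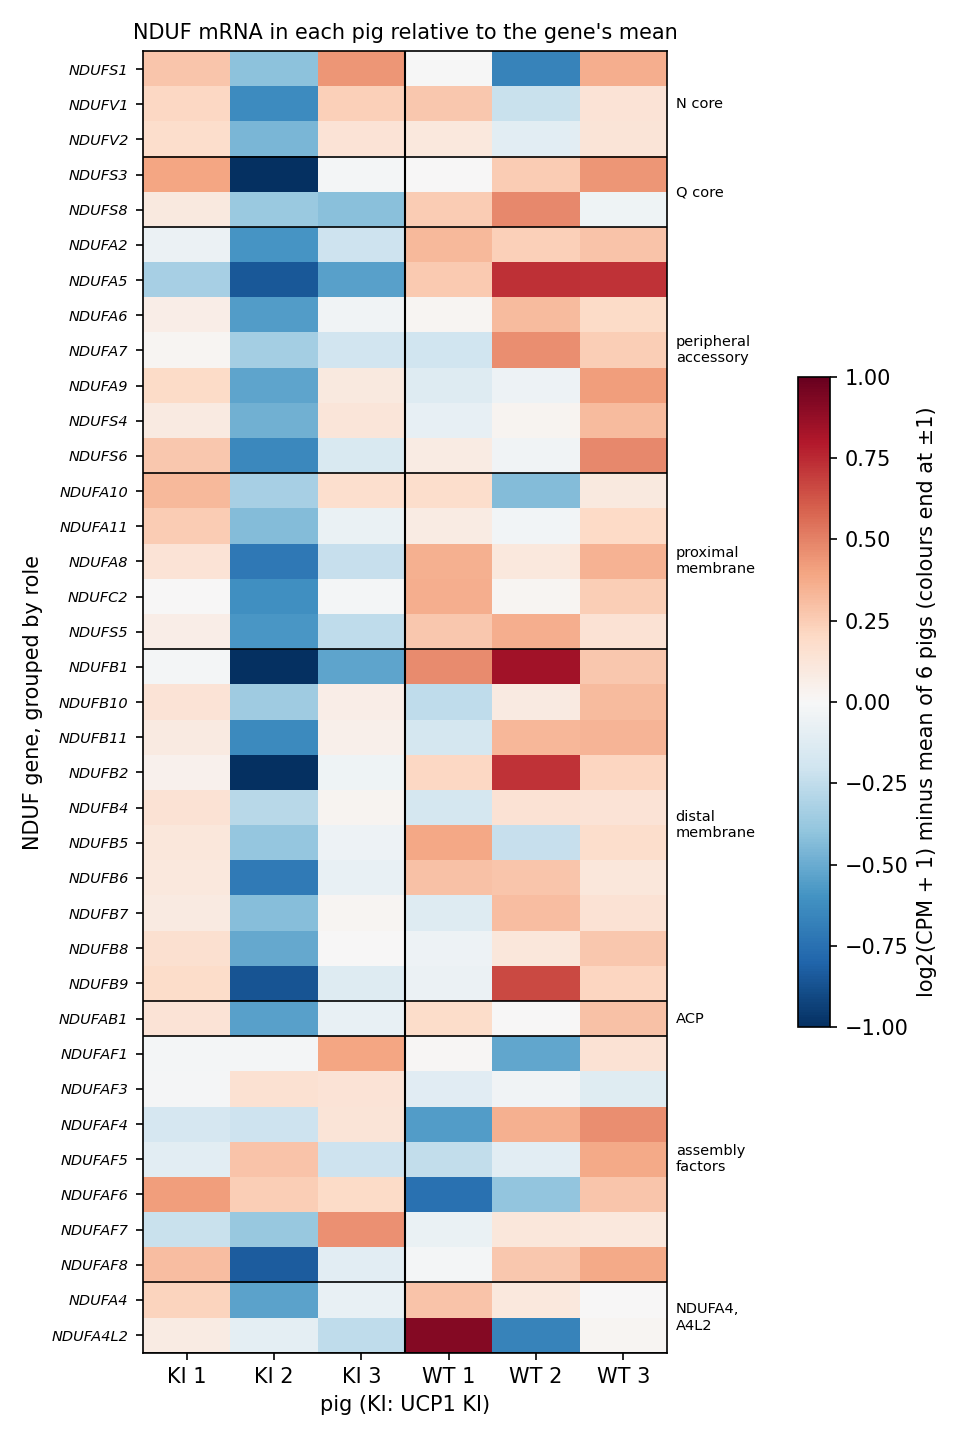
Level of 37 *NDUF* genes (vertical axis, grouped by role) in each pig (horizontal axis), coloured by log2(CPM + 1) minus its mean over the 6 pigs, with colours ending at 1 in either direction. The column of UCP1 KI replicate 2 holds the lowest value of 22 of the 23 accessory subunits.

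The pigs of the UCP1 KI group were not alike in these genes. UCP1 KI replicate 2 held the lowest value of 29 of the 38 *NDUF* genes, 26 of 29 subunits and 22 of 23 accessory subunits, while UCP1 KI replicates 1 and 3 were lowest for 0 and 1 of the 38. A WT pig was highest for most genes, replicate 1 for 8, replicate 2 for 10 and replicate 3 for 12, and the UCP1 KI pigs for 4, 1 and 3. Summed over the 29 subunits the level was 4549, 2707 and 3996 CPM in UCP1 KI and 4295, 4806 and 4838 CPM in WT muscle. UCP1 KI replicate 1 thus lay within the WT range, replicate 3 somewhat under it and replicate 2 far under it. The place of replicate 3 depends on the scaling, since without TMM factors the subunits took 0.431%, 0.319% and 0.467% of all counts against 0.457%, 0.375% and 0.444% in WT muscle, and replicate 3 was then the highest of the 6. The 7 *NDUFAF* genes summed to 93.6, 86.5 and 100.4 CPM against 79.9, 92.0 and 104 CPM, with overlapping groups. Without UCP1 KI replicate 2 the subunits had 19 negative and 10 positive log2 fold changes in place of 26 and 3. Their median was then -0.12, where all genes tested had -0.038. *NDUFA5* and *NDUFB1* were the 2 subunits called, beside 678 called of all 13782 genes tested.

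Some other gene lists were also at an extreme in this pig, and others were not. The fast fibre markers, 4 of 7 listed genes being measured, summed to 48904, 14061 and 45826 CPM in UCP1 KI muscle and to 31049.7, 74528 and 73288 CPM in WT muscle, and all 4 were lowest in UCP1 KI replicate 2. The slow fibre markers, 5 of 7 measured, summed to 12327, 10183 and 6936 CPM in UCP1 KI and to 17176, 4170.2 and 5349 CPM in WT muscle. For all 5 WT replicate 1 was highest and WT replicate 2 lowest. All 5 leukocyte markers were highest in UCP1 KI replicate 2, with sums of 13.2 to 48.3 CPM in UCP1 KI and 12.3 to 27.4 CPM in WT pigs. The T cell gene *CD3E* among them was called higher, where 3.84% of all genes were. It stood at 1.84 on the log2 scale (standard error 0.69, adjusted p = 0.583 by edgeR with Benjamini-Hochberg correction). Its groups overlapped, at 2.91, 7.04 and 1.03 CPM in UCP1 KI against 1.27, 0.621 and 1.17 CPM in WT muscle. The red blood cell markers, 3 of 4 measured, summed to 75.8, 11.4 and 73.2 CPM in UCP1 KI muscle and to 104, 107 and 179.5 CPM in WT muscle, with no overlap, 0 calls and the lowest sum again in UCP1 KI replicate 2. Most of this sum was the beta globin gene *HBB*, at -1.29 on the log2 scale (standard error 0.64), and *SLC4A1* had 0 counts in 5 of the 6 pigs. WT replicate 2 was highest for all 5 adipocyte and all 5 fibroblast markers. The fibroblast markers summed to between 208 and 410.5 CPM in UCP1 KI against 713 to 1143 CPM in WT muscle. The collagen genes *COL1A1*, *COL1A2* and *COL3A1* among them were called lower, where 4.34% of all genes were. Their adjusted p lay between 0.28 and 0.58 by edgeR with Benjamini-Hochberg correction. The rest of the list, *PDGFRA* (-0.081) and *DCN* (-0.39), was not called and overlapped between the groups. No marker of the fibre, leukocyte or fibroblast lists that was measured was at 0 in all pigs. The endothelial markers, 3 of 4 measured, overlapped at 226 to 458 CPM in UCP1 KI and 234 to 434 CPM in WT muscle. The part of fibre type, other cell types, blood and this library in the *NDUF* differences was not tested.

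**Figure D4:**
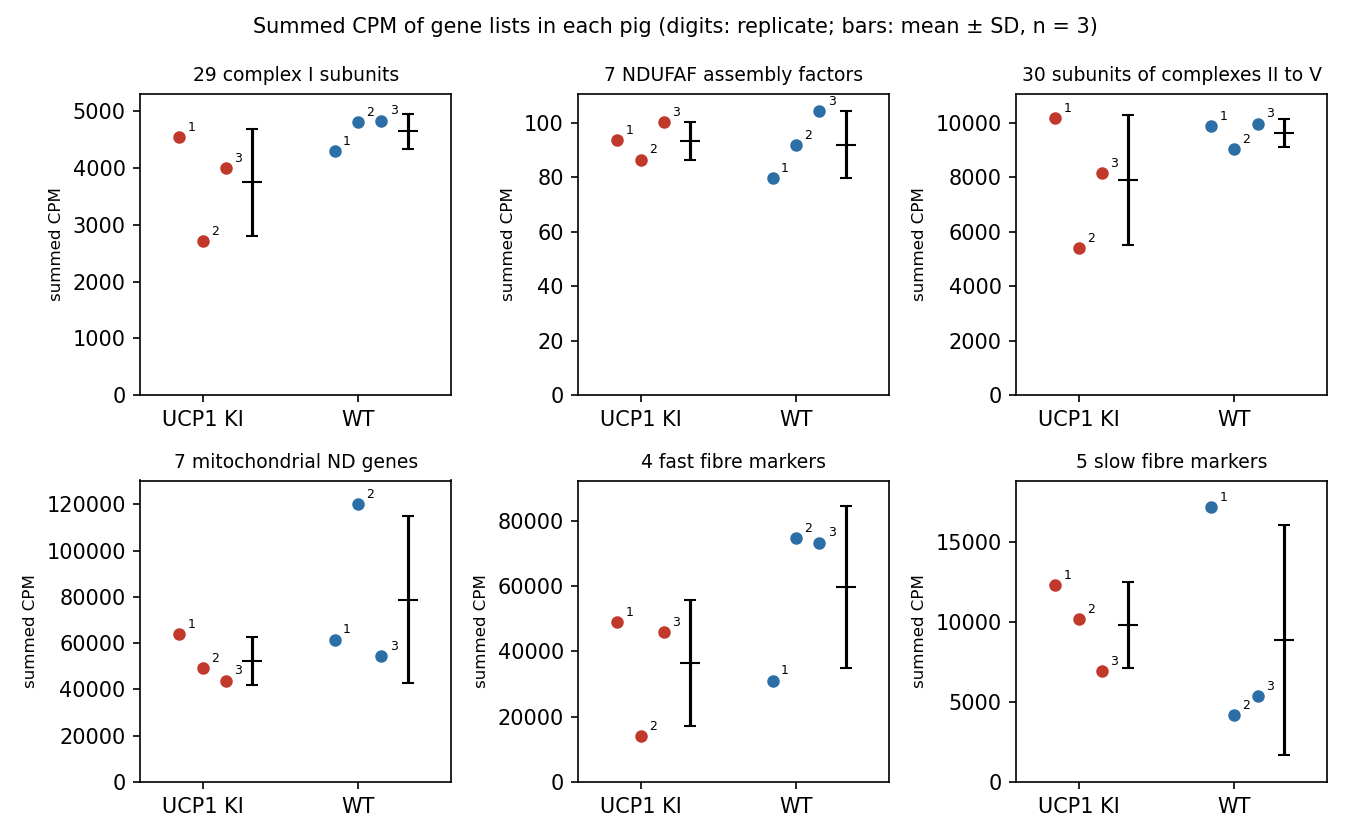
Summed CPM (vertical axes, from 0) of gene lists in each UCP1 KI and each WT pig, with replicate numbers as digits and bars for the mean ± SD (n = 3). The digit 2 of the UCP1 KI group is lowest for the complex I subunits (2707 CPM), the nuclear subunits of complexes II to V (5400 CPM) and the fast fibre markers (14061 CPM).

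The subunits that mitochondrial DNA encodes had their own pattern. Of 7 genes 6 had a negative log2 fold change, the median was -0.65, and *ND4L* alone was called, where 4.34% of all genes were called lower, at -1.12 on the log2 scale (standard error 0.48, adjusted p = 0.608 by edgeR with Benjamini-Hochberg correction). *ND4L* was at 1375, 2186 and 1592 CPM against 2256, 6308 and 2605 CPM, so UCP1 KI replicate 2 was the highest of its group and WT replicate 2 stood apart. *ND4L* overlaps *ND4* in the mitochondrial genome, and reads of one cannot always be told from reads of the other. *ND1* had the highest value of the list at 0.35 (standard error 0.66), from 13006, 4096 and 2808 CPM against 3263, 8334 and 3999 CPM, with UCP1 KI replicate 1 far above the rest. Without WT replicate 2 the median of the 7 genes was -0.35 and 0 were called, and the call of *ND4L* was also lost without UCP1 KI replicate 1 or 3. It was lost too with library size only and with the replicate block, whereas DESeq2 called *ND4*, *ND4L* and *ND5* lower.

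The nuclear subunits of complexes II to V resembled those of complex I in the sign of most fold changes. Of 30 measured genes out of 40 listed, 27 had a negative log2 fold change, 1 (3.33%) was called lower, under the 4.34% of all genes, 0 were called higher, and the median was -0.26 beside -0.315 for the 29 complex I subunits. The call was *ATP5ME*, a small subunit of the ATP synthase, at -0.84 (standard error 0.34, adjusted p = 0.603 by edgeR with Benjamini-Hochberg correction). This call held without UCP1 KI replicate 1 and was lost without any other single pig. The highest value was 0.67 (standard error 0.50) for *SDHC*, a membrane anchor of complex II, which was called higher without WT replicate 3. The list too was lowest in UCP1 KI replicate 2, with sums of 10177, 5400 and 8150 CPM against 9870, 9028 and 9975 CPM. Without that pig 17 were negative and 13 positive, and the median was -0.028, and with library size only there were also 17 and 13, with a median of -0.052. A difference between the lists was not tested.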

How the data were processed

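RNA of longissimus dorsi from 3 UCP1 KI and 3 WT pigs had been sequenced as paired ends. The submitters' processing notes name FastQC 0.11.2, Trimmomatic 0.36, HISAT2 2.0, StringTie 1.3.3b and the build Sscrofa11.1, and the counting program and annotation release are not given in the sources used here. The authors deposited raw counts per Ensembl gene, without normalization. Ensembl pig gene names supplied the symbols, and RefSeq for Sscrofa11.1 the positions, matched by symbol for all 38 genes.

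The edgeR 4.0.16 package in R 4.3.3 was used (filterByExpr with the condition as group, TMM factors, quasi-likelihood F test, two-sided, condition as the only term). The standard error is the log2 fold change divided by the square root of F. Exact permutation tests enumerated the 20 assignments of the pigs, on log2(CPM + 1) for single genes and on the percent of subunit counts for the core genes together. A call required a p below 0.05 and a log2 fold change beyond 0.5 in size. The procedure was tested on simulated data. P-values measure the spread between these pigs.

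Core genes, called genes, the 3 highest and 3 lowest fold changes and *NDUFAF* genes without overlap were named with every pig's value, and other lists by their extremes. 1 gene that the rule takes is not reported here. The genes and lists were chosen with earlier results of these data known. Also tried were DESeq2 1.42.0, on these genes or on every gene with a count, scaling by median-of-ratios factors or by library size alone, mitochondrial genes left out of scaling, 3 other count filters, a replicate block, each pig left out and no fold limit.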

Additional observations from a re-analysis of the deposited data

How the results depend on the processing

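Leaving out UCP1 KI replicate 2 and WT replicate 2 together was chosen after the values were seen. It left 1 *NDUF* gene past both limits in place of 3, *NDUFA5* at -0.97, 1 complex I subunit, 0 genes of complexes II to V, 0 mitochondrially encoded subunits and 421 genes in all in place of 1097. Its median for the *NDUF* genes was -0.053, and *NDUFV1* and *NDUFV2* turned to 0.018 and 0.038. With library size as the only scaling, the median of all genes shifted by 0.25, the median of the *NDUF* genes was -0.018 (-0.26 relative to all genes, beside -0.22 with TMM factors), *NDUFV1* and *NDUFV2* stood at 0.13 and 0.16, 0 genes of complexes II to V and 0 mitochondrially encoded subunits were called, and 82.7% of all calls were higher in UCP1 KI pigs. DESeq2 called 3 mitochondrially encoded subunits (*ND4*, *ND4L* and *ND5*, all lower) beside 1309 and 1389 genes in all, with the genes of the edgeR test as well as with every gene that had a count. With the replicate block the same 3 *NDUF* genes were called, 2 genes of complexes II to V (*ATP5ME* lower and *SDHC* higher) and 0 mitochondrially encoded subunits were called. The replicate numbers were not taken as pairs, since no label links pigs of the same number and the deviations of same-numbered pigs correlated at 0.0038, 0.094 and 0.28, not all above 0.1. Differently numbered pigs lay between -0.20 and 0.13. In log2(CPM + 1) UCP1 KI replicate 3 and WT replicate 3 correlated at 0.9615, as high as any pair of pigs. A shared origin of these pigs cannot be told from these values. Leaving out 1 pig at a time, 2 to 3 *NDUF* genes, 0 to 1 *NDUFAF* genes, 0 to 1 genes of complexes II to V (*ATP5ME* lower without UCP1 KI replicate 1, *SDHC* higher without WT replicate 3), 0 to 2 mitochondrially encoded subunits and 678 (UCP1 KI replicate 2) to 1541 (WT replicate 3) genes in all were called. The median of the *NDUF* genes then lay between -0.38 and -0.11, *NDUFS1* between -0.045 and 0.46, *NDUFV1* between -0.22 and 0.14, *NDUFV2* between -0.17 and 0.10 and *NDUFAF6* between 0.37 and 1.07. Of 240 values of the 15 named *NDUF* genes under other settings, 8 changed sign and 222 kept direction and call. Each *NDUF* gene lay above the level of 3 counts in every pig, and 3 pigs a group limit the precision. The cause of these changes was not tested.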
